A study of Rattus norvegicus with 2 samples.

Results

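The sugar, amino acid and monocarboxylate transporters of the solute carrier superfamily were described in cultured rat microglia. They were taken as every probe set that the platform annotation assigned to exactly 1 gene with a symbol beginning Slc1a, Slc2a, Slc3a, Slc5a, Slc6a, Slc7a, Slc16a, Slc36a, Slc38a or Slc43a and a number. This gave 107 of 31099 probe sets and 79 of 14217 genes. One of these, Slc7a6os, takes its symbol from its position opposite Slc7a6 and is not itself a carrier, and it was kept because the rule includes it. Microglial cells with a Sprague Dawley strain background, grown in DMEM with FCS, were either left unexposed (resting, 1 array) or put through 3 h of oxygen-glucose deprivation (OGD, 1 array), a culture model of ischaemia. Whether the cells were a primary culture or a line, and how many animals they came from, is not given in the sources used here. Expression was measured as intensities on Affymetrix rat arrays, and since each group is a single array, the values below describe these 2 arrays and carry no test and no spread between cultures.

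Cells that lose glucose and oxygen depend on carriers for what fuel remains. Facilitative sugar carriers (Slc2a) and sodium-coupled ones (Slc5a) bring glucose and fructose across the plasma membrane, and monocarboxylate carriers (Slc16a) let lactate out. Amino acid carriers supply glutamine, cystine, arginine and leucine, and several of their genes are textbook targets of the factors that answer low oxygen (HIF) and amino acid shortage (ATF4). In brain, glutamate carriers (Slc1a) also clear the transmitter from the extracellular space, a task mainly of astrocytes.

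Windows at the RefSeq starts of 4 members are shown because the results turn on these genes or because they hold the letters that both factors are known to bind. Slc2a1 encodes the main glucose carrier of hypoxic cells, Slc1a2 and Slc7a6 are among the genes that differed most between the arrays, and Slc7a1 encodes an arginine carrier. Each window runs from 250 bases before to 50 after the start of a RefSeq transcript, 5′ to 3′ on the gene's strand in GRCr8, and capitals mark the HIF core (ACGTG or GCGTG) and the composite element of C/EBP and ATF factors (TGATGNAA), each searched on both strands. Slc2a1 lies at chr5:138002272-138002571, plus strand. Slc1a2 has windows at chr3:109459859-109460158 and chr3:109507697-109507996, both plus strand. Slc7a1 lies at chr12:11664238-11664537 and Slc7a6 at chr19:50993256-50993555, both plus strand.
Slc2a1: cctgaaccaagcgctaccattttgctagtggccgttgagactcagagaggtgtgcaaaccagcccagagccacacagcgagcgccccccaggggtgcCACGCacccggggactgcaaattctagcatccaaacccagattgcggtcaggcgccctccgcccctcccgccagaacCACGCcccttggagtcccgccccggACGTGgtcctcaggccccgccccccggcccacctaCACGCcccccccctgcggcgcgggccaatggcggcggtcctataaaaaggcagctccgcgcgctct
Slc1a2, first window: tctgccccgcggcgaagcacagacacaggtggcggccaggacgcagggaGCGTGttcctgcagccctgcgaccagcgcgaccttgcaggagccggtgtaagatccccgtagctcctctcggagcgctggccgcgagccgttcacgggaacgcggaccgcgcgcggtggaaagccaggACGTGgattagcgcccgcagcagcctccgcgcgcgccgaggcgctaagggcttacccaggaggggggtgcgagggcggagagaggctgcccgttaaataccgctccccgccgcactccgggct
Slc1a2, second window: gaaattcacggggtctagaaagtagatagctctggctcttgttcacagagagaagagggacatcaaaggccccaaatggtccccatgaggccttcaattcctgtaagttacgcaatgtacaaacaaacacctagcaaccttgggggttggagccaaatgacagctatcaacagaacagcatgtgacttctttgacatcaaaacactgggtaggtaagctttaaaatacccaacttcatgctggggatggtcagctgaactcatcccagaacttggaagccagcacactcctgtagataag
Slc7a1: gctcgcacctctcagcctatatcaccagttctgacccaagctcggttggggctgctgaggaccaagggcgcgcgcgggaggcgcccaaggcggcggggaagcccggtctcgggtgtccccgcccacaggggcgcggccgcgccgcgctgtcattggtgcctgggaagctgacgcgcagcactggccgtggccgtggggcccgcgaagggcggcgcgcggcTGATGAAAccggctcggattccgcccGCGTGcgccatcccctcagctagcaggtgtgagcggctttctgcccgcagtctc
Slc7a6: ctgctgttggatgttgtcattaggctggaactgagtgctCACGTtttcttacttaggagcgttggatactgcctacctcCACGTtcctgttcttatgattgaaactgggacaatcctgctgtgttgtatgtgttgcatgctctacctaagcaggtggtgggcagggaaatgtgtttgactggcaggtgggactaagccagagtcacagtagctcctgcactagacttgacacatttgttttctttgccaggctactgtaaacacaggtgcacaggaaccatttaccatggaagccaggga

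The Slc2a1 window held 4 matches to the HIF core, the first Slc1a2 window 2, the second 0, the Slc7a6 window 2 and the Slc7a1 window 1. Of these, only the Slc7a1 window held the C/EBP-ATF composite, starting 30 bases before the transcript start. Among windows not shown, that of Slc16a3, named below as a HIF target, held 0 HIF cores. Those of Slc7a11 and Slc38a2, named below in connection with ATF4, held 0 composites. Of the 79 member genes 61 had a window in the RefSeq table, with 66 windows in all, and Slc7a2 was not listed there. The HIF core was found in 38 of these 66 windows (57.6%), against 41.6% of all 33469 windows of the same length. The composite was found in 3 windows (4.55%), those of Slc7a1, Slc1a4 and Slc38a1, against 3.98% of all windows. These matches describe letters in the sequence and not binding. A RefSeq start is not always the start of transcription, and no window was checked to be a promoter. In the Slc7a6 window the start directly follows the letters ttttctttgccag, which resemble the end of an intron. Its 2 matches may therefore lie in an intron, which was not tested. Windows of 1 gene can overlap, as those of Slc1a3 do, each counted as holding the HIF core. The base composition of the windows was not taken into account, so the shares are descriptive only.

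A probe set was called measured when it lay above the median of all non-control probe sets on at least 1 array, a floor of 19.62 at rest and 19.66 after OGD, and a gene was represented by its brightest probe set. By this rule 48 of the 79 genes (60.8%) were measured, against 67.4% of all 14217 genes and 66.2% of 195 other Slc genes. Of the 48, 44 were above the floor on both arrays and 4 on 1 array only, and for these 4 the difference is a bound with the dim array set to the floor. The floor is a median and not a test of presence, so a value just above it does not show that the gene was expressed. The other 31 genes were below it on each array, with intensities from 3.12 to 17.7, and are given no fold. Intensities of different genes were not compared as levels of expression, since probes differ in how brightly they bind. Across probe sets they served to choose the brightest of a gene, to place values against the floor and to sum marker lists. Such sums weigh bright probe sets most.

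All 12 microglial markers examined were above the floor at rest, and all but Csf1r after OGD, among them Trem2 at 604.2 at rest and Cd68 at 370.7, and 11 of the 12 were lower on the OGD array (4915 of all 9580 measured genes were), with a median log2 difference of -0.098 and a summed intensity of 1382 at rest and 1324 after OGD. The exception, the complement gene C1qc, was 1.23-fold higher and the only one of them past 1.2-fold. Of the markers of other cells that were on the array, 4 of 7 for astrocytes, 3 of 7 for the oligodendrocyte lineage, 2 of 10 for neurons, 2 of 6 for endothelium and 2 of 6 for fibroblasts were above the floor. In a bulk culture, fewer cells of a type and less RNA per cell cannot be told apart.

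No transporter gene differed by 1.5-fold, the threshold of the study's design: 0 were higher and 0 were lower, where 0.0731% of all 9580 measured genes were higher and 0.0418% lower. At a smaller size of 1.2-fold, 2 were higher on the OGD array, Slc1a2 and Slc6a2, against 3.56% of all measured genes. Slc6a2 entered only through its OGD value, and among genes above the floor on both arrays the count was 1, Slc1a2. At that size 1 was lower, Slc7a2, against 3.97% of all measured genes. These counts of 1 or 2 genes are too few to set apart from the background. The median log2 difference, OGD minus resting, was 0 over the 48 measured transporters, -0.0076 over all measured genes and 0.012 over 129 measured genes of other Slc families. Of the 48, 23 were higher, 22 lower and 3 exactly equal on both arrays. Of all 9580 measured genes 4100 were higher, 4915 lower and 565 equal, and of the 129 other Slc genes 68, 53 and 8. Among the 44 above the floor on both arrays the SD of the log2 differences was 0.141, against 0.148 for all genes. Of these 44, 34 (77.3%) lay within 1.1-fold. The share was 67.6% for all genes and 68% for 125 other Slc genes above the floor on both arrays.

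**Figure D1:**
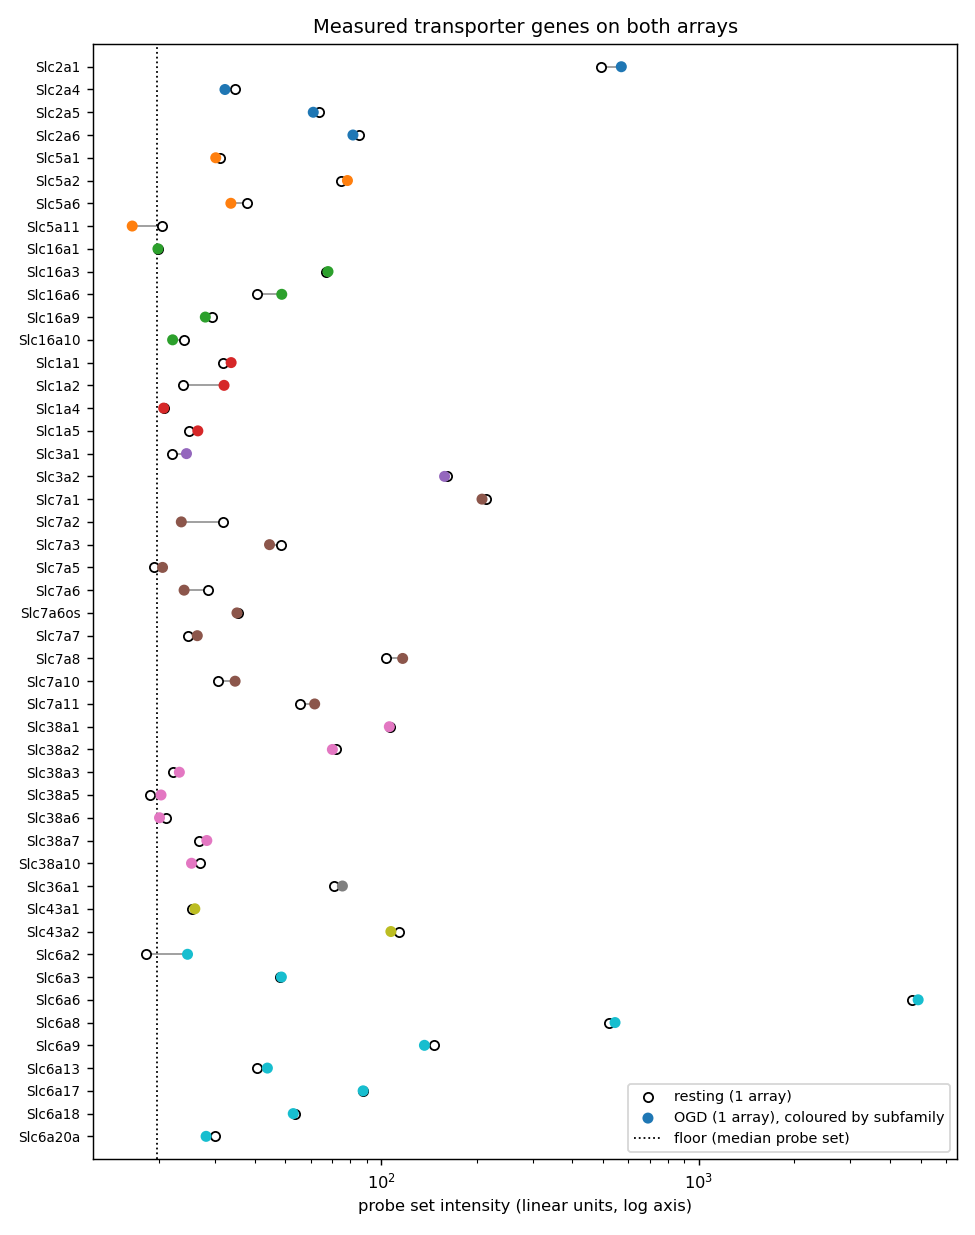
Intensity of the 48 measured transporter genes at rest (open circles) and after OGD (filled circles, coloured by subfamily) on a log axis, 1 array each, with the floor as a dotted line. The pairs nearly coincide for most genes, the longest gaps are those of Slc1a2, Slc7a2 and Slc6a2, and positions of different genes along the axis are not comparable.

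Among the facilitative sugar carriers, 4 of 9 genes were measured. Slc2a1, which encodes GLUT1, the broadly expressed glucose carrier and a textbook HIF target, had an intensity of 491.1 at rest and 570.5 after OGD on its only probe set, 1370848_at. It was thus 1.16-fold higher on the OGD array, a log2 difference of 0.22, and the only measured sugar carrier of the Slc2a group that was higher. Across the scalings, floors and probe set choices that gave it a value, this difference ran from 0.21 to 0.25. Slc2a5 encodes the fructose carrier GLUT5, which serves as a microglial marker, and it measured 63.7 at rest and 61.2 after OGD. Slc2a6, a carrier of lysosomal membranes, measured 85.4 and 81.6. Slc2a4, the insulin-responsive carrier of muscle and fat, measured 34.6 and 32.3, while its other probe set was under the floor with 15.05 on both arrays. All 3 were lower on the OGD array by less than 1.1-fold. Slc2a3, the high-affinity glucose carrier of neurons, was under the floor in both of its probe sets, at 10.9 and 9.60 at rest and 13.6 and 10.1 after OGD. Also under the floor were Slc2a2 (the liver and beta cell carrier), Slc2a8, Slc2a9 (a urate carrier) and Slc2a13 (a proton-coupled inositol carrier). The median of the 4 measured genes was -0.062, and it stayed below 0 under each of the 11 alternatives that gave a value.

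Of the sodium-coupled Slc5a family, which includes sugar, inositol, vitamin and iodide carriers, 4 of 8 genes were measured. Slc5a6, the carrier of biotin and pantothenate, measured 37.9 at rest and 33.7 after OGD and was 1.13-fold lower. Slc5a1 and Slc5a2 encode the glucose carriers of gut and kidney. They measured 31.2 and 75.0 at rest and 30.2 and 78.4 after OGD, each within 1.1-fold. Slc5a11, an inositol carrier, was just above the floor at rest (20.4) and under it after OGD (16.5), so its difference has only a bound of 1.04-fold lower. Without a floor, the widest log2 difference of any member probe set (0.68) belonged to Slc5a12, a sodium-coupled lactate carrier, at 10.4 at rest and 16.6 after OGD, but both values lay under the floor and no fold is given. Slc5a3, Slc5a5 and Slc5a7, carriers of inositol, iodide and choline, were under the floor too.

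Among the monocarboxylate carriers 5 of 9 genes were measured. Slc16a3, which encodes MCT4, the lactate exporter of glycolytic cells and a textbook HIF target, measured 67.3 at rest and 68.1 after OGD, a log2 difference of 0.016. Slc16a1, which encodes MCT1, had 19.84 on both arrays, just above the floor, and 15.6 and 17.0 in a second probe set under it. Neither of these lactate carriers therefore moved apart between the arrays by as much as 1.1-fold. Slc16a6, a member linked to ketone bodies, was the one that differed most: it measured 40.7 at rest and 48.7 after OGD, 1.197-fold higher and just inside the 1.2-fold size, which it passed when differences were centred on the median (0.27 on the log2 scale). Its other probe set was higher too, at 10.9 and 13.0, although under the floor. Slc16a10, a carrier of aromatic amino acids, measured 23.9 and 22.1 and Slc16a9 29.4 and 28.0, both lower by less than 1.1-fold. Slc16a7 (MCT2), Slc16a8 (MCT3), Slc16a12 and Slc16a13 were under the floor.

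Genes of the chaperones and enzymes that work with these carriers were described from a list of partners. Bsg, the chaperone that carries MCT1 and MCT4 to the membrane, measured 255.8 at rest and 243.5 after OGD, and Emb, its relative, 165.0 and 172.1. Ldha, which makes lactate from pyruvate, measured 277.8 and 292.5, Hk1, which traps glucose in the cell, 119.8 and 127.9, and Txnip, which restrains glucose uptake, 85.0 and 83.6. Of 45 symbols listed for partners in sugar, lactate, glutamate and amino acid handling, 39 were on the array and 32 were measured. The symbols Tmem27 and Cltrn, both listed, name the same gene. Of the 32, 15 were higher, 14 lower and 3 equal, with a median of 0 and 0 past 1.2-fold in either direction. Of all measured genes 3.56% were higher and 3.97% lower by that size, so 32 genes are too few to set the 0 apart from the background.

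**Figure D2:**
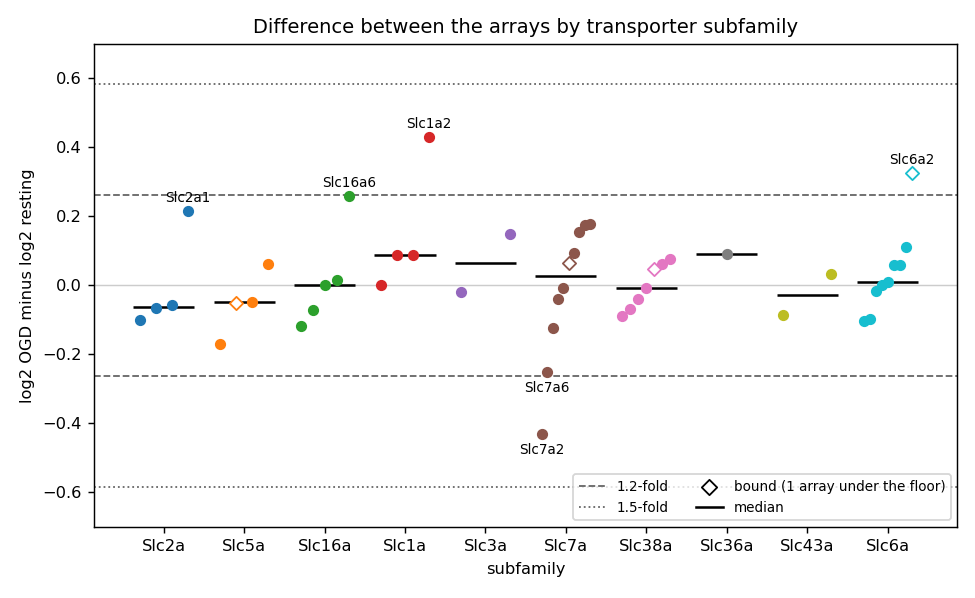
Log2 difference, OGD minus resting, of each measured transporter gene by subfamily, with the subfamily median as a bar, open diamonds for the 4 bounds, and dashed and dotted lines at 1.2-fold and 1.5-fold. Slc1a2 and Slc6a2 lie above the upper dashed line and Slc7a2 below the lower one, and every point lies between the dotted lines.

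The Slc1a family holds the sodium-coupled carriers of glutamate and of small neutral amino acids, and 4 of its 6 genes were measured. Slc1a2, which encodes the astrocytic glutamate carrier GLT-1, measured 23.8 at rest and 32.0 after OGD on probe set 1369693_a_at. It was 1.35-fold higher on the OGD array, the largest upward difference among the transporters above the floor on both arrays. Its other probe set, 1369694_at, went the other way under the floor, from 6.21 to 5.23, and with the mean over both probe sets the gene was not measured. Gfap, the astrocyte filament gene, measured 27.4 at rest and 36.9 after OGD, also 1.35-fold higher. The 4 measured astrocyte markers had a median log2 difference of 0.053, with 2 higher and 2 lower. The summed intensity of the list, which Glul and Aldoc dominate, was 356.3 at rest and 345.8 after OGD, Aqp4, Aldh1l1 and S100b did not reach the floor at rest or after OGD, Gja1 measured 22.1 and 24.3, and Glul and Aldoc were lower on the OGD array. The part of such cells in the Slc1a2 value was not tested.

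Slc1a1, which encodes the glutamate and cysteine carrier EAAT3, measured 31.7 at rest and 33.7 after OGD, and its other probe set 21.6 and 24.9, so both were higher, by 1.06-fold and 1.16-fold. Slc1a5, the glutamine carrier ASCT2, measured 24.9 and 26.5. Slc1a4, its relative ASCT1, had 20.68 on both arrays. Slc1a3, the glutamate carrier GLAST, was under the floor in all 3 of its probe sets, which ranged from 5.68 to 12.01 over both arrays and differed in direction. Slc1a6, a carrier of cerebellar neurons, was under it too. The median of the 4 measured genes was 0.089, with 3 higher, 0 lower and 1 equal. It stayed above 0 under each of the 11 alternatives that gave a value, from 0.070 to 0.21. The 0.21 came from the next brightest probe sets, where Slc1a1 was the only gene measured. With the higher floor no Slc1a gene was measured. All 4 are dim on these arrays, with intensities from 20.7 to 33.7. Among enzymes that handle glutamate, Glul, which makes glutamine, measured 152.3 at rest and 131.7 after OGD, and the aminotransferase Got1 155.4 and 134.7, both lower on the OGD array, while Glud1 measured 117.5 and 110.9.

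The Slc7a carriers work in part as light chains joined to the heavy chains of the Slc3a family. Slc3a2 encodes the heavy chain 4F2hc (CD98), and it measured 160.7 at rest and 158.5 after OGD, a log2 difference of -0.020 that became 0.016 with quantile and 0.0069 with loess scaling. Slc3a1, the heavy chain rBAT of kidney, measured 22.0 and 24.4, near the floor. Slc7a11, the light chain of the cystine-glutamate exchanger xc- and a target of ATF4 and NRF2, measured 55.5 at rest and 61.8 after OGD, 1.11-fold higher, with a log2 difference between 0.13 and 0.16 under the alternatives. Slc7a8, which encodes the neutral amino acid exchanger LAT2, measured 103.3 and 116.9 and was 1.13-fold higher. Slc7a5, its relative LAT1, lay at the floor, at 19.25 at rest and 20.5 after OGD, and has only a bound of 1.05-fold higher. Slc7a10, a carrier of glycine and serine, measured 30.7 and 34.7 and was 1.13-fold higher.

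The y+L exchangers, which swap cationic for neutral amino acids, went in opposite directions. Slc7a6 measured 28.6 at rest and 24.0 after OGD and was 1.19-fold lower, while Slc7a7, which is prominent in macrophages, measured 24.7 and 26.4. Slc7a6os, on the strand opposite Slc7a6, measured 35.3 and 35.2, and its log2 difference of -0.0068 became 0.0019 after centring on the median.

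The cationic amino acid carriers, which take up arginine for nitric oxide synthase and arginase, included the member that was lowest relative to rest. Slc7a2, the CAT-2 carrier that activated macrophages induce, measured 31.7 at rest and 23.5 after OGD on its only probe set, 1369460_at, and was 1.35-fold lower. The difference was between -0.44 and -0.33 on the log2 scale under the 9 alternatives that gave it a value, and with the higher floor it was not measured. Slc7a1, the constitutive carrier CAT-1, whose sequence window holds the composite element, measured 213.5 at rest and 207.8 after OGD. Its other probe set above the floor had 62.2 and 68.2, so the probe sets disagreed in direction, with log2 differences of -0.038 and 0.13. Slc7a3, the third of these carriers, measured 48.5 and 44.6. Under the floor were Slc7a4, Slc7a9, Slc7a12, Slc7a13 and Slc7a14. Over the 10 measured Slc7a genes 5 were higher and 5 lower, the latter including Slc7a6os, with a median of 0.029.

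The Slc38a family of sodium-coupled neutral amino acid carriers, among them carriers of glutamine, had 7 of 9 genes measured. Of these, 3 were higher and 4 lower, with a median of -0.0068. Every one of the 7, 1 of them a bound, lay within 1.1-fold, as did 67.6% of all genes above the floor on both arrays. These 7 genes are too few to set apart from that share. Slc38a1 (SNAT1) measured 106.7 at rest and 106.2 after OGD, a log2 difference of -0.0068 that turned to 0.0020 to 0.011 under the 3 other scalings. Slc38a2 (SNAT2), which cells raise through ATF4 when amino acids run short, measured 72.1 and 70.3. Slc38a3, Slc38a6, Slc38a7 and Slc38a10 lay between 20.1 and 28.3 on both arrays, where Slc38a7, a lysosomal glutamine carrier, measured 26.8 and 28.3. Slc38a3 measured 22.2 at rest and 23.2 after OGD, Slc38a6 21.1 and 20.1, and Slc38a10 26.9 and 25.3. Slc38a5 was under the floor at rest (18.8) and above it after OGD (20.3), a bound of 1.03-fold higher. Slc38a9, the lysosomal arginine sensor of mTORC1, and Slc38a4 were under the floor.

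The proton-coupled lysosomal carrier Slc36a1 measured 71.0 at rest and 75.6 after OGD, 1.06-fold higher, and its relatives Slc36a2 and Slc36a3 were under the floor. Slc43a2, a carrier of branched-chain amino acids (LAT4), measured 114.0 and 107.4, and Slc43a1 (LAT3) 25.3 and 25.9. Of 12 measured genes of amino acid sensing, to which Slc38a9 and Slc36a1 are linked, 6 were higher, 4 lower and 2 equal. Among them Atf4 had 700.6 on both arrays and Rraga 213.4 on both, while Rptor measured 40.4 at rest and 47.2 after OGD. Asns, the asparagine synthetase gene and an ATF4 target, measured 162.6 and 172.6.

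The Slc6a family of sodium- and chloride-coupled carriers had 9 of 16 genes measured, 5 higher, 3 lower and 1 equal, with a median of 0.0096. Slc6a6, the taurine carrier, measured 4707 at rest and 4906 after OGD on probe set 1374531_at and 519.8 and 509.3 on 1368778_at, so its direction differed between probe sets and both lay within 1.1-fold. Slc6a8, the creatine carrier, was higher in both probe sets, at 523.3 against 545.1 and 412.9 against 468.6, or 1.04-fold and 1.13-fold. Slc6a9, the glycine carrier GlyT1, was lower in all 3 of its probe sets, 1.07-fold in the one that stands for it (147.0 at rest and 136.9 after OGD) and 1.05-fold in the next, with the last under the floor.

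Carriers of monoamines and GABA, which are known from neurons and glia, gave mixed values. Slc6a2, the noradrenaline carrier, was under the floor at rest at 18.2 and above it after OGD at 24.6, at least 1.25-fold higher on its only probe set. Slc6a3, the dopamine carrier, had 48.2 and 48.5 on 1 probe set and 46.67 on both arrays on the other. Slc6a13, the GABA carrier GAT2, measured 40.6 and 43.9. Slc6a17, a vesicular carrier of neurons, had 5 probe sets: 3 above the floor, with log2 differences of 0, 0.25 and -0.026, and 2 under it. The 3 above the floor carry the suffix _s_at, which marks probes that match more than 1 transcript. Of 10 neuron markers 8 did not reach the floor on either array, and the summed intensity of the list was 248.2 at rest and 251.6 after OGD. The part of other cells or of cross-matching probes in these values was not tested. Slc6a18 and Slc6a20a, epithelial amino acid carriers, were within 1.1-fold, at 53.5 and 30.1 at rest and 52.9 and 28.1 after OGD. Under the floor were Slc6a4, Slc6a5, Slc6a7, Slc6a11, Slc6a14, Slc6a15 and Slc6a20b.

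**Figure D3:**
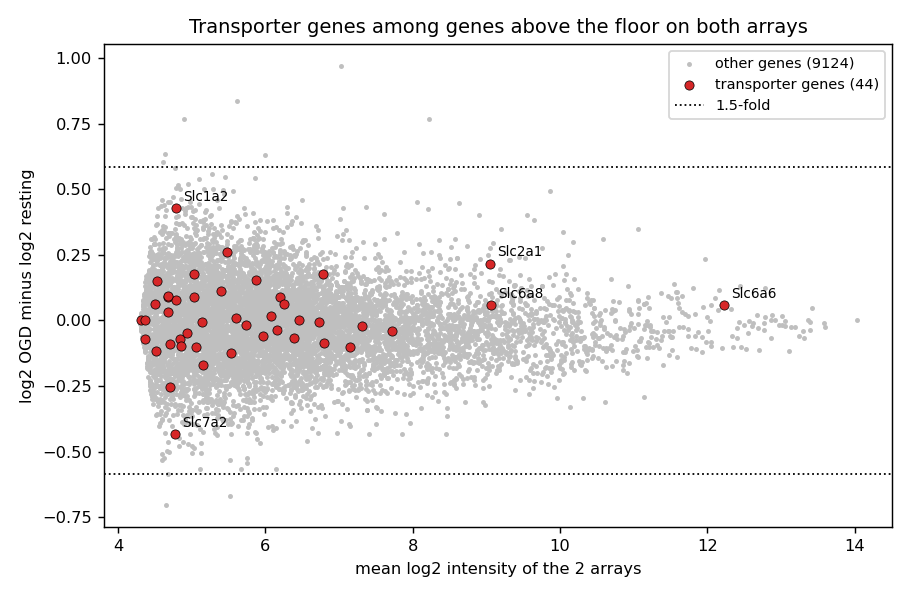
Log2 difference, OGD minus resting, against mean log2 intensity for the 44 transporter genes (red) and 9124 other genes (grey) above the floor on both arrays, 1 array per group, with dotted lines at 1.5-fold. The transporters lie inside the grey cloud, Slc1a2 and Slc7a2 at its dim end, and Slc2a1, Slc6a8 and Slc6a6 at brighter values.

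The only error that 1 array per group allowed was the spread between probe sets of the same gene. Over the 7 transporter genes with more than 1 probe set above the floor on both arrays (15 probe sets), the SD within genes was 0.101 on the log2 scale, or 1.07-fold, and over 1902 such genes of the whole array it was 0.147, or 1.11-fold. It does not cover the spread between cultures. Of the 7, Slc1a1 and Slc6a8 were higher and Slc6a9 was lower in all their probe sets above the floor, whereas Slc6a6, Slc6a17 and Slc7a1 had probe sets of both signs, and Slc6a3 had 1 equal and 1 higher. Of the 44 transporters above the floor on both arrays, 10 had a log2 difference larger than 0.147. These were Slc1a2 (0.43), Slc16a6 (0.26), Slc2a1 (0.22), Slc7a8 (0.18), Slc7a10 (0.18), Slc7a11 (0.15) and Slc3a1 (0.15) on the higher side, and Slc7a2 (-0.43), Slc7a6 (-0.25) and Slc5a6 (-0.17) on the lower. None of the 10 had another probe set above the floor to set against it. The cut of 0.147 is about as large as the SD of the differences across the whole array (0.148). Passing it therefore does not set a transporter apart from other genes, and how many of those passed it was not counted. At the nearby size of 1.1-fold, 77.3% of the 44 transporters lay within it, against 67.6% of all genes above the floor on both arrays.

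**Figure D4:**
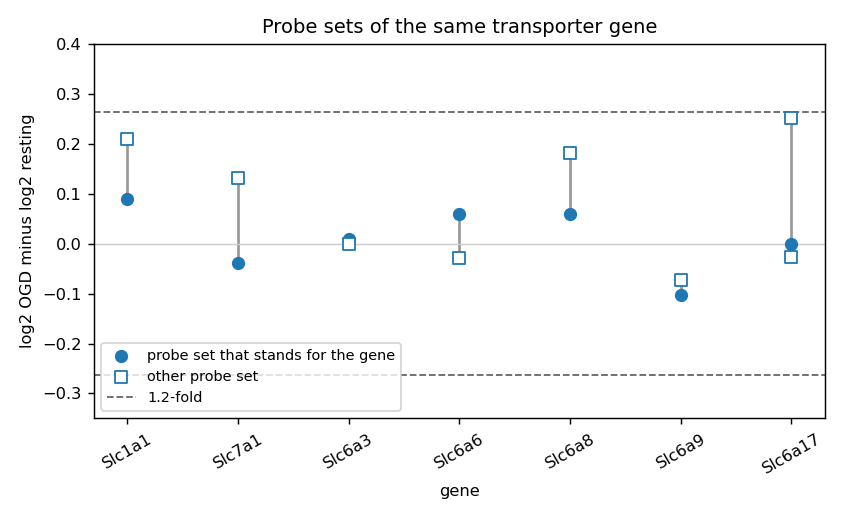
Log2 difference, OGD minus resting, of each probe set above the floor on both arrays for the 7 transporter genes with more than 1 (filled circle, the one that stands for the gene; open squares, the others), with dashed lines at 1.2-fold. Probe sets of Slc6a17 span from -0.026 to 0.25 and those of Slc6a3 nearly coincide.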

How the data were processed

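Total RNA of resting and OGD-exposed microglia was labelled with biotin from oligo(dT)-primed cDNA, per the labels' protocols. The deposited values are intensities, on a linear scale judging by their range. How the authors corrected background, summarised probes and scaled the arrays is not stated in the sources used, and a difference shared by most genes would not show in scaled values. Groups came from the labels.

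Probe sets were named from the platform annotation: 20826 named 1 gene, 436 several and 9780 none, 57 were controls. All 107 member symbols were unchanged in the RefSeq table of GRCr8. The brightest probe set, by its mean log2 value, stood for a gene. Values under the floor (median of non-control probe sets) were set to it before log2 differences, OGD minus resting, were taken in Python 3.11.15 with pandas 2.3.3, numpy 2.4.6 and, for loess at a span of 0.3, statsmodels 0.14.6. The calculation was tested on simulated data. The number of arrays limits the precision.

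Genes with values given are members past 1.5-fold or 1.2-fold, those with the largest difference in each subfamily, and a list of carriers known in microglia or brain. In practice every measured member is given, Slc6a17 only by its log2 differences. The members and lists were chosen with earlier results of these data known. Alternatives were lower and higher floors (30th and 70th percentile) or none, leaving out bounds, 3 other scalings, other probe set choices, and a pseudocount at the 25th percentile. No paired analysis was possible because each group has 1 array, and for the same reason no array could be left out.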

Additional observations from a re-analysis of the deposited data

How the results depend on the processing

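No transporter passed 1.5-fold under 10 of 12 alternatives, nor a 2-fold threshold. With the lower floor or with no floor 1 gene, Slc5a12, was higher by 1.5-fold, at intensities under the main floor on both arrays. Counts at 1.2-fold depended on the floor: 6 higher and 2 lower with the lower floor, 10 and 3 with no floor, and 0 and 0 with the higher floor, at which 22 genes were measured. Leaving out bounds gave 1 higher, as did the mean over probe sets. The next brightest probe sets, measured for 7 genes, gave 0 and 0 at 1.2-fold, and leaving out probe sets with letter suffixes gave 0 higher, since Slc1a2 and Slc6a2 are measured by such sets.

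The median over all measured transporters ran from 0 to 0.13, the last over the 7 next brightest probe sets. The Slc36a median, from 1 measured gene, became -0.072 with the lower floor or none, when its 2 dim relatives entered. Of the 112 subfamily medians under alternatives 20 differed from the main value in sign, counting 0 as a sign of its own, whereas those of Slc1a, Slc2a and Slc43a kept theirs. No transporter past 1.2-fold changed direction, but the alternatives could hardly have reversed one. Slc7a2 and Slc6a2 have only 1 probe set each. The other probe set of Slc1a2 went the other way, but under the floor. Slc1a2 therefore had no value with the next brightest probe sets, the mean over probe sets or the sets without letter suffixes. Scalings shifted the median of all measured genes by at most 0.0088. Dim probe sets limit what can be seen here: 51 of 107 were under the floor on both arrays.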

Other observations

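Many values and differences recurred exactly in the deposited data. Of the 107 transporter probe sets 9 (8.41%) had exactly the same intensity on both arrays, against 8.70% of 31042 probe sets. Of the 98 that differed, 74 (75.5%) shared the size of their log2 difference, to 6 decimals and regardless of sign, with another probe set of the array, against 72.0% of 28341. Slc1a1 and Slc1a5 both differed by 0.089008, a size found on 222 probe sets, and Slc5a2 and Slc38a3 both by 0.063348, found on 46. The genes past 1.2-fold had shared sizes too. Before the floor was applied, that of Slc7a2 was found on 24 probe sets, that of Slc1a2 on 21 and that of Slc6a2 on 7. In 4 transporter probe sets, among them those of Slc2a5 and Slc38a1, the values on both arrays ended in 0.165231 or 0.665231, steps of 0.5 units apart, as did 2.55% of all probe sets. The cause was not tested.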
